A study of Mus musculus with 4 samples.

Results

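The genes described here burn fatty acids and ketone bodies in the mitochondria of the mouse heart. They are 31 genes of carnitine import and the carnitine shuttle, the β-oxidation cycle, the electron transfer flavoprotein, malonyl-CoA removal and ketone use. They were listed by their place in the pathway, though with earlier results of these data known. All 31 of 31 were measured, by 58 of 45037 tested probe sets. A probe set is a group of short array probes designed for the same transcript, and a member probe set is one whose only gene symbol in the array annotation is a listed gene. The 31 genes stand among 18193 genes with such a probe set.

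The samples were hearts of C57B6 mice aged 3.6 months, labelled as baseline, with no treatment named. The wild-type group had 2 arrays, and the group labelled GSK-3alpha S21A, a knock-in that replaces the serine at which Akt restrains the kinase by alanine, also had 2. The labels give neither sex nor whether each array holds a separate animal, so the spread between arrays may be technical. The comparison asks which heart transcripts differ when GSK-3alpha cannot be restrained at that serine. Values are RMA signals on the log2 scale, and every difference is knock-in minus wild-type.

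Long-chain fatty acids enter the mitochondrion as carnitine esters and are then shortened by a repeating cycle of oxidation, hydration, oxidation and thiolysis. The electrons reach the respiratory chain through NADH and the electron transfer flavoprotein. The adult heart draws most of its energy from this route, and it also takes up ketone bodies made in the liver. Many of these genes are known targets of the receptor PPARα and of the oestrogen-related receptors.

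By the brightest probe set of each gene, differences in this pathway were mostly small. On that measure 28 of 31 genes differed by less than 0.15 (90.3%), against 57.2% of all genes. Brighter genes differed less over the whole table. Of the 25 members with a mean of at least 11, 22 stayed within 0.15 (88.0%), against 74.8% of the 1428 genes as bright. From a mean of 13 upward 14 of 15 members did (93.3%), against 91.7% of all genes as bright. Over the 31 genes the median difference was 0.02, against −0.01 over all genes, and the range ran from −0.26 for Ech1 to 0.23 for Acad11. No member probe set passed the test (limma adjusted p of at least 0.376), while 3 of all 45037 probe sets did (0.00666%). By these brightest probe sets the 95% interval of each gene stayed within 1.42-fold in either direction. Dimmer probe sets of the same genes reached further, with upper bounds of 1.004 for Bdh1 and 1.29 for Oxct1 on the log2 scale.

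**Figure D1:**
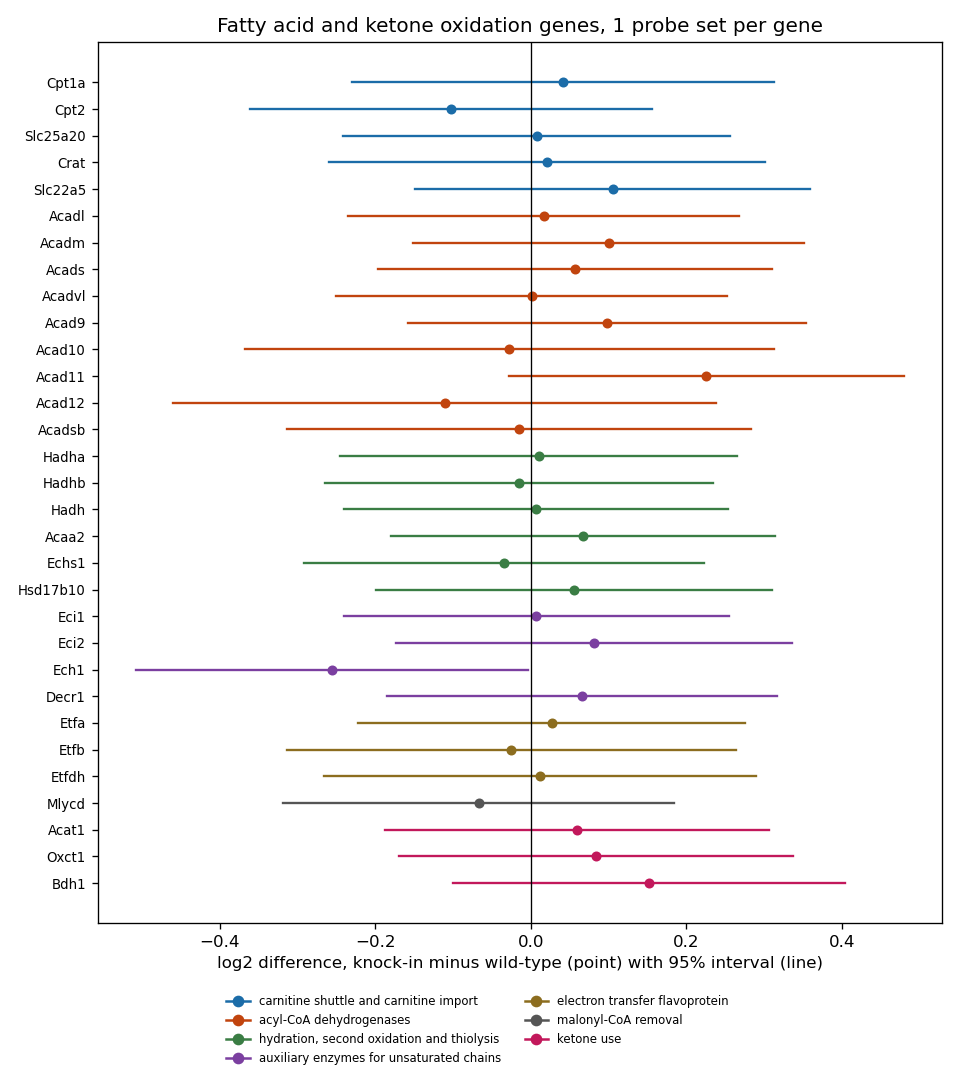
Each point is the log2 difference between knock-in and wild-type hearts (2 arrays each) for the brightest probe set of a gene, with its 95% limma interval as a line and the gene's role as the colour. The points run from −0.26 for Ech1 to 0.23 for Acad11, and the Ech1 interval alone leaves out 0.

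In 22 of 31 genes the knock-in mean was the higher, against 46.9% of all genes. Brighter genes were more often higher, and 18 of the 25 members with a mean of at least 11 were (72.0%), against 67.4% of all genes as bright. The direction also depended on the scaling. After quantile normalisation 11 of 31 were higher (35.5%, against 44.8% of all genes), with a median of −0.02 in members and in all genes. After cyclic loess 10 were higher (32.3%, against 48.0%), with a median of −0.03, against −0.01. With the arrays shifted to 1 median 27 were higher (87.1%, against 59.9%), with a median of 0.08, against 0.05. Both knock-in arrays lay above both wild-type arrays in 12 members (38.7%, against 22.5% of all genes) and below them in 3 (9.68%, against 24.1%). Among the 25 brighter members these counts were 10 and 3 (12.0%), against 35.2% and 12.1% of genes as bright.

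Promoter sequences are shown for Ech1, Acad11 and Bdh1, the 3 genes whose brightest probe sets differed most, so that values can be read beside them. Sequences are also shown for the 3 members with an inexact letter match to a PPAR-type repeat. They come from RefSeq, build GRCm38.p6, which lists 27 promoters for 26 of the 31 genes, each running from 250 bases before to 50 after the gene start. Capitals would mark the hexamer AGGTCA, read by nuclear receptors, or its direct repeat with a 1-base gap, AGGTCANAGGTCA, on either strand and with up to 2 mismatches in the repeat. None of the following windows holds either, and Bdh1 has a pair of listed starts.
Ech1, chr7:28825088-28825387, + strand: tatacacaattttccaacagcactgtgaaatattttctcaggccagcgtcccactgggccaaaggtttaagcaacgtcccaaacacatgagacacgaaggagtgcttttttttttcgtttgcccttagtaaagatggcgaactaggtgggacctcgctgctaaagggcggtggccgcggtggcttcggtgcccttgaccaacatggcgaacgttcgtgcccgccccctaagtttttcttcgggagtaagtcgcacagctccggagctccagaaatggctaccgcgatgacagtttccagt
Acad11, chr9:104063474-104063773, + strand: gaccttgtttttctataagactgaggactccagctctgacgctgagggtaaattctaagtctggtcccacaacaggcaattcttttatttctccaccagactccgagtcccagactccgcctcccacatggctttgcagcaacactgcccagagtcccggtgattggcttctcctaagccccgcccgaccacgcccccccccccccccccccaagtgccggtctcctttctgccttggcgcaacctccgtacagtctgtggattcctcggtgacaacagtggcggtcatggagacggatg
Bdh1, chr16:31422047-31422346, + strand: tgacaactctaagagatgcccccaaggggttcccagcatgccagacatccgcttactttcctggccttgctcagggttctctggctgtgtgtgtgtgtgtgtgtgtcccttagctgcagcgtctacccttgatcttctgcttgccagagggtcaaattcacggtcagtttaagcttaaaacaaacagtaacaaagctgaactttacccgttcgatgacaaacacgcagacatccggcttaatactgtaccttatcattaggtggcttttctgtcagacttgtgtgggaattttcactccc
Bdh1, chr16:31428503-31428802, + strand: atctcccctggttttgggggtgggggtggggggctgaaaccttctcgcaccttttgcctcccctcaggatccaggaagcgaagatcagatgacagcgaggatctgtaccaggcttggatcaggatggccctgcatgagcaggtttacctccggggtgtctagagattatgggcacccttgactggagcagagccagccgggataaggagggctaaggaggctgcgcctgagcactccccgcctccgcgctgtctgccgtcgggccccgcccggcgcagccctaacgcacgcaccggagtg

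The repeat was found near the starts of Echs1, Etfa and Slc25a20, each time with 2 mismatches. In the following windows it stands in capitals with 10 bases on each side, written along the gene, and in Etfa it reads on the opposite strand.
Echs1, chr7:140116482-140116514, - strand: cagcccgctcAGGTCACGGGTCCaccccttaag
Etfa, chr9:55512298-55512330, - strand: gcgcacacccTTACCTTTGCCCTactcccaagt
Slc25a20, chr9:108662132-108662164, + strand: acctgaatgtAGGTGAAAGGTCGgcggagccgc
The 3 genes with the repeat differed by −0.03, 0.03 and 0.01 by their brightest probe sets. The repeat occurred in 3 of 27 member promoters (11.1%), against 3.86% of all 32851 listed promoters, and without mismatches in 0 members, against 0.040%. The hexamer, which is part of the repeat, occurred in 4 member promoters, those of Acadm, Acadvl, Cpt1a and Echs1 (14.8%, against 16.3%). The longer oestrogen-related receptor element TCAAGGTCA, which contains the hexamer, occurred in 0, against 0.423%. A match is a match of letters in this window only.

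Carnitine genes differed by at most 0.11 in size by their brightest probe sets. Cpt2, the inner-membrane enzyme that returns acyl groups from carnitine to coenzyme A, lay at 13.12 and 13.11 in wild-type and at 12.96 and 13.07 in knock-in hearts. Both knock-in values were the lower, by 0.10 (95% interval −0.36 to 0.16), and knock-in replicate 1 was the lowest array. Cpt1a, the liver-type outer-membrane enzyme that starts the shuttle, lay at 10.05 and 10.14 against 10.06 and 10.21, and the groups overlapped. Slc22a5, the plasma membrane carnitine importer, lay at 10.20 and 10.27 against 10.31 and 10.36, a difference of 0.11 (95% interval −0.15 to 0.36). The carnitine-acylcarnitine translocase gene Slc25a20 differed by 0.01 and by 0.13 in its other probe set, and the carnitine acetyltransferase gene Crat by 0.02, against −0.09 and −0.19. The muscle-type gene Cpt1b is read by a probe set annotated to 3 genes, which cannot be assigned to it alone; that probe set differed by 0.11 (12.37 and 12.22 against 12.41 and 12.41).

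The dehydrogenases that open each turn of the cycle for very long, long, medium and short chains differed by at most 0.10. Acadvl differed by 0.00, Acadl by 0.02 and Acads by 0.06. Acadm, for medium chains, lay at 14.12 and 14.15 in wild-type and at 14.27 and 14.21 in knock-in hearts, so that both knock-in arrays were higher, by 0.10 (95% interval −0.15 to 0.35). Acadsb, which acts on short branched chains from isoleucine, differed by −0.02.

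Acad11, a less studied dehydrogenase gene, had the largest positive difference among the brightest probe sets, and its probe sets agreed. The brighter one lay at 11.42 and 11.44 against 11.61 and 11.70, a difference of 0.23 with a standard error of 0.11, or 1.17-fold (limma adjusted p = 0.477). The other lay at 11.12 and 11.33 against 11.46 and 11.55, a difference of 0.28 (adjusted p = 0.468). In both, the knock-in arrays stood above the wild-type arrays. The lowest values over the alternatives run were 0.16 and 0.18, the first after cyclic loess and the second without wild-type replicate 1.

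Acad9 and Acad10 had probe sets that disagreed. Acad9, needed for the assembly of complex I as well as for oxidation, lay at 9.26 and 9.33 against 9.36 and 9.43 by its brightest probe set. A dimmer Acad9 probe set lay at 7.42 and 8.005 against 8.13 and 8.32, a difference of 0.52, and the third at −0.12. Without wild-type replicate 1, the lowest array, the 0.52 became 0.22. Acad10 overlapped by its brighter probe set (7.53 and 7.28 against 7.25 and 7.50), while its other one lay at 7.46 and 7.08 against 6.95 and 6.75. That second difference of −0.42 (limma adjusted p = 0.458) became −0.23 without wild-type replicate 1. Acad12, a little-known relative, lay at 8.37 and 8.41 against 8.09 and 8.46, with overlapping groups.

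Genes of the later steps of the cycle differed by at most 0.07 in size by their brightest probe sets. Hadha, the subunit of the trifunctional protein that hydrates and oxidises long chains, lay at 13.63 and 13.54 in wild-type and at 13.58 and 13.61 in knock-in hearts. Hadhb, its thiolase partner, lay at 14.26 and 14.28 against 14.28 and 14.23. The groups overlapped for both subunits, and the differences were 0.01 and −0.02. Other Hadhb probe sets differed by 0.41, where knock-in replicate 1 stood apart at 12.77 from 12.01, 12.19 and 12.25, and by −0.28. Hadh, the short-chain hydroxyacyl-CoA dehydrogenase gene, differed by 0.01 and 0.03 in its bright probe sets, and by 0.40 in one that lay below the array medians.

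Acaa2, the mitochondrial thiolase gene, lay at 13.39 and 13.41 against 13.47 and 13.47, a difference of 0.07, but another of its probe sets differed by −0.10 with the groups apart in the other direction. Echs1, the short-chain hydratase gene, differed by −0.03. Hsd17b10, whose product acts on short branched chains and in mitochondrial tRNA processing, lay at 12.29 and 12.30 against 12.30 and 12.40 by its bright probe set. A dimmer one lay at 9.27 and 9.77 against 9.97 and 9.96, a difference of 0.44 that became 0.19 without wild-type replicate 1. Again wild-type replicate 1 was the low array.

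The auxiliary enzymes, which rearrange double bonds so that unsaturated chains can enter the cycle, held the largest negative difference among the brightest probe sets. Ech1, the dienoyl-CoA isomerase gene, lay at 14.24 and 14.20 in wild-type and at 13.99 and 13.94 in knock-in hearts. The means were 14.22 ± 0.03 (SD, n = 2) and 13.97 ± 0.04 (SD, n = 2), with both knock-in arrays below both wild-type arrays and a gap several times the spread within either group. The difference of −0.26 (standard error 0.10) made Ech1 1.19-fold lower, and it did not pass over the whole table (limma adjusted p = 0.465). Its unadjusted limma p of 0.047 became 0.057 with the replicate block, 0.110 with the arrays shifted to 1 median, and 0.072 to 0.174 with 1 array left out. The difference lay between −0.30 and −0.20 in the alternatives run, and 1 probe set with a single symbol reads the gene. Ech1 sits on chromosome 7, the chromosome of Gsk3a, 105 protein-coding genes away from it. Gsk3a itself differed by −0.42 (11.16 and 11.08 against 10.62 and 10.80; limma adjusted p = 0.458). The other members on that chromosome, Etfb, Acadsb and Echs1, lie 323, 1342 and 1401 such genes away and differed by −0.03, −0.02 and −0.03.

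The other auxiliary genes differed by at most 0.08 in size. Eci2, an enoyl-CoA isomerase gene, lay at 11.94 and 12.02 against 12.04 and 12.08, and its relative Eci1 differed by 0.01. Decr1, the dienoyl-CoA reductase gene whose product works beside them, differed by 0.07 in one probe set and −0.08 in the other. Whether Ech1 differs from these genes was not tested.

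The electron transfer flavoprotein takes electrons from the dehydrogenases, and its genes differed by at most 0.03 in size by their brightest probe sets. Etfa lay at 13.57 and 13.55 against 13.60 and 13.57, and Etfb at 14.01 and 13.80 against 13.83 and 13.92. Etfdh, the oxidoreductase that hands the electrons to ubiquinone, differed by 0.01 in its bright probe set. The groups overlapped in all 3. Mlycd, which removes malonyl-CoA, the inhibitor of the carnitine shuttle, lay at 11.52 and 11.51 against 11.41 and 11.48, a difference of −0.07 (95% interval −0.32 to 0.18).

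Genes of ketone use were each slightly higher in the knock-in hearts. Bdh1 oxidises β-hydroxybutyrate, Oxct1 passes coenzyme A to acetoacetate and Acat1 splits the product into acetyl-CoA. By their brightest probe sets they differed by 0.15, 0.08 and 0.06, with both knock-in arrays above both wild-type arrays in 3 of 3, against 35.2% of genes with a mean of at least 11. Each difference was also larger than the gap between the replicates of either group, as in 31.5% of all genes. None passed the test (limma adjusted p of at least 0.575 for these probe sets). Their sign held in each alternative run, though the lowest differences were 0.08 for Bdh1, 0.04 for Oxct1 and 0.005 for Acat1. Another bright Oxct1 probe set, at −0.01, turned its sign in 3 of 13 alternatives.

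Bdh1 had the smallest p of all members. Its dimmer probe set lay at 8.66 and 8.92 in wild-type and at 9.46 and 9.52 in knock-in hearts. The means were 8.79 ± 0.18 (SD, n = 2) and 9.49 ± 0.04 (SD, n = 2), so that the groups stood well apart. The difference of 0.70 (standard error 0.13; 95% interval 0.40 to 1.004) was 1.63-fold, and it missed the threshold over the whole table (limma adjusted p = 0.376). It lay between 0.57, without wild-type replicate 1, and 0.83, without wild-type replicate 2. The brighter probe set lay at 11.37 and 11.43 against 11.53 and 11.57, 1.11-fold higher. Both Bdh1 probe sets thus had the same direction but not the same size, and the deposited values do not say which follows the transcript.

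Oxct1 was read by 4 probe sets that ranged from −0.01 to 0.71. The brightest lay at 13.69 and 13.77 against 13.83 and 13.79, and the next at 13.34 and 13.30 against 13.29 and 13.33, with overlapping groups. A dimmer one lay at 9.87 and 10.18 against 11.09 and 10.37, a difference of 0.71 (limma adjusted p = 0.458) that became 0.35 without knock-in replicate 1. The last, at 7.51 and 7.86 against 8.05 and 7.81, overlapped. In the probe set at 0.71 knock-in replicate 1 was the highest array, and knock-in replicate 2 also lay above both wild-type arrays. The mean of 16 liver markers was 8.50 on knock-in replicate 1 and 7.14 on knock-in replicate 2. On the wild-type arrays it was 6.13 and 5.63. Oxct1 is known to be nearly absent from hepatocytes, and the part of the liver transcripts in the difference of 0.71 was not tested. Acat1 differed by 0.06, 0.07 and 0.18 in its 3 probe sets.

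**Figure D2:**
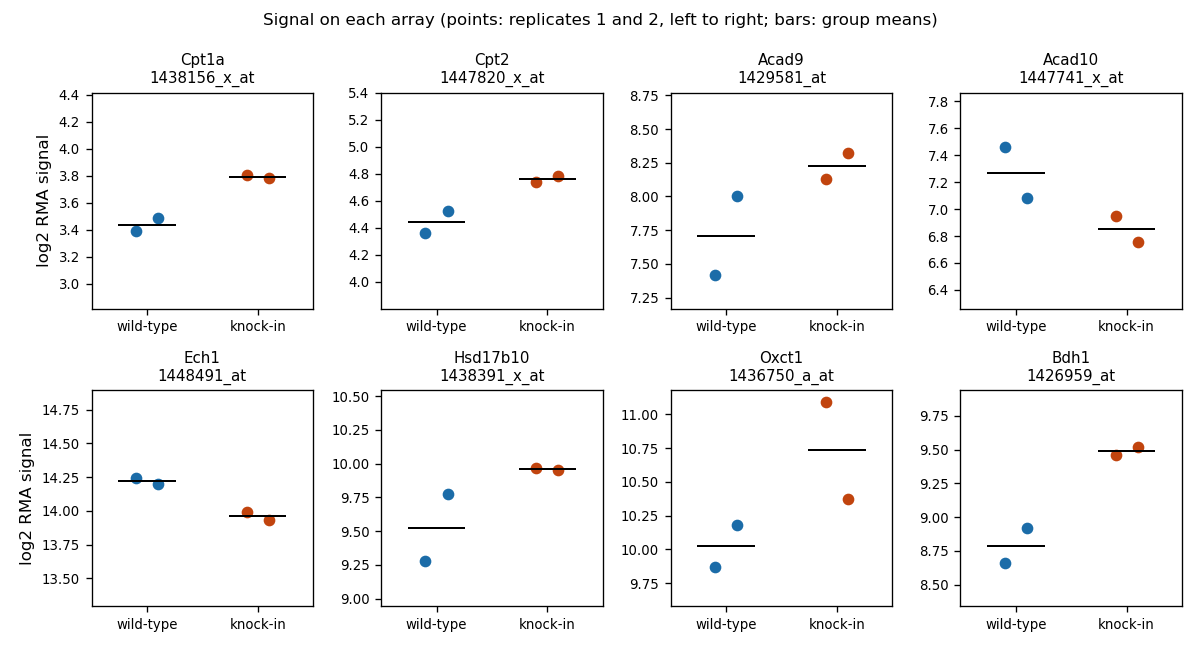
Log2 RMA signal on each array for the 8 member probe sets with an unadjusted p under 0.05, with wild-type arrays in blue, knock-in arrays in red and group means as bars, each panel spanning the same height. In Ech1, Bdh1, Cpt1a and Cpt2 the groups stand apart by more than the spread within either, the last pair at signals near background. In Acad9, Hsd17b10 and Oxct1 a single array lies far from its partner.

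Over all 58 member probe sets, 6 were higher and 2 lower at an unadjusted limma p under 0.05. These are 10.3% and 3.45%, against 5.07% and 5.62% of all probe sets. Of the 8, only Ech1 is the brightest probe set of its gene. The others are dimmer probe sets of Bdh1, Oxct1, Acad9, Hsd17b10, Acad10, Cpt1a and Cpt2, and the last pair lay below the array medians, near background (3.39 and 3.49 against 3.80 and 3.78 for Cpt1a, 4.36 and 4.52 against 4.74 and 4.78 for Cpt2). The count of 8 was 4 without the probe sets whose IDs end in s_at or x_at. Of these 4, 3 were higher and 1 lower among 44, against 4.69% and 5.91% of all probe sets kept. With an intensity trend in the variance prior 10 were higher and 2 lower, against 5.58% and 5.23% of all. With the arrays shifted to 1 median 10 were higher and 1 lower, against 8.37% and 2.87%. The count also changed with 1 array left out, as did that over all probe sets.

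**Figure D3:**
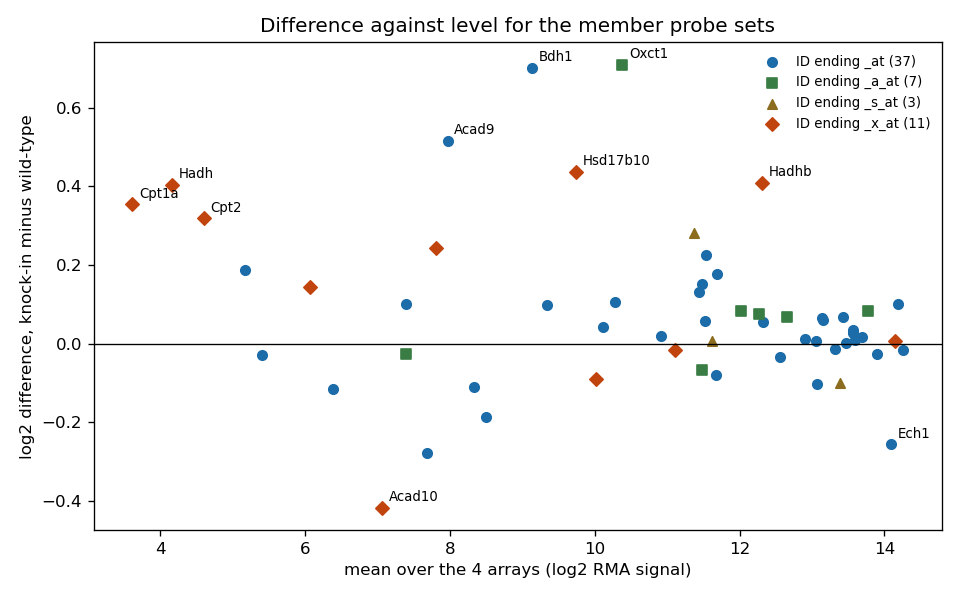
Log2 difference between knock-in and wild-type hearts against the mean log2 signal over the 4 arrays for the 58 member probe sets, with the marker giving the ending of the probe set ID. Above a mean of 13 the points lie within 0.15 of 0 except Ech1 at −0.26, and the widest differences, 0.71 for Oxct1 and 0.70 for Bdh1, belong to probe sets of lower signal.

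Agreement between probe sets thus sets a limit on what can be said of single genes. Of 18 genes with several probe sets, 8 had differences of both signs, and the widest spans were 0.72 for Oxct1, 0.69 for Hadhb and 0.63 for Acad9. The narrowest were 0.01 for Slc22a5, 0.05 for Acadl and 0.06 for Acad11. The 35 brighter member probe sets, from a mean of 11 upward, had a median absolute difference of 0.07, against 0.09 for all probe sets as bright. The 23 dimmer ones had 0.19, against 0.13. The 11 with IDs ending in x_at, which contain probes that also match other transcripts, had a median difference of 0.24, against 0.01 for all probe sets of that ending. Wild-type replicate 1 was the lowest array in 16 of the 27 probe sets that are not the brightest of their gene (59.3%), against 27.2% of all such probe sets with 1 symbol. Leaving it out lowered the differences of Acad9 and Hsd17b10 as given above.

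**Figure D4:**
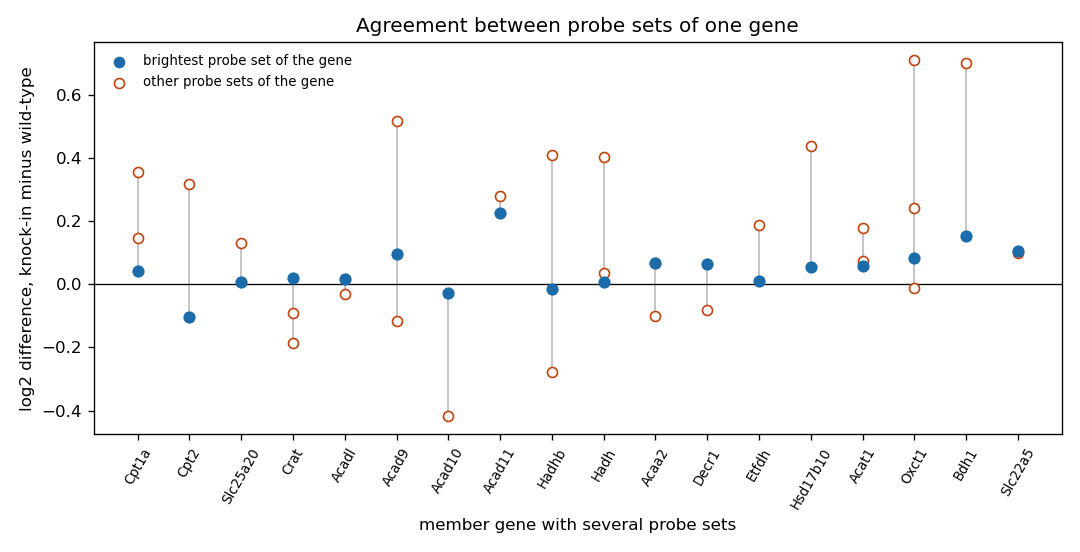
Log2 difference for every probe set of the 18 member genes that have several, with the brightest probe set of each gene filled and the others open. The filled points lie between −0.10 and 0.23, while the open ones reach from −0.42 for Acad10 to 0.71 for Oxct1.

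The arrays hold heart RNA by their markers, with other transcripts beside it. The 10 cardiomyocyte markers had means between 13.08 and 14.81, and 7 were higher and 3 lower, with a median difference of 0.05. Of 16 measured liver markers 16 were higher, with a median of 1.92, though 0 passed the test and 13 had an unadjusted limma p under 0.05. Albumin, the main protein made by liver, had its Alb signal at 7.33 and 5.72 against 10.81 and 9.66. Bdh1 is also abundant in liver. On knock-in replicates 1 and 2 it lay at 9.46 and 9.52 by its dimmer probe set and at 11.53 and 11.57 by the brighter. The part of the liver transcripts in its difference was not tested. Adipocyte markers were higher in 4 of 7, with Adipoq at 6.89 on knock-in replicate 2 against 5.13 to 5.30 on the other arrays. Skeletal muscle markers were lower in 7 of 10, and fibroblast markers higher in 8 of 8 with a median of 0.17. Endothelial markers were higher in 7 of 8, macrophage markers in 6 of 7, smooth muscle markers in 3 of 6, erythroid markers in 2 of 3 and lymphocyte markers in 0 of 6. Over all genes 46.9% were higher, a share that changed with the signal. It was 25.5% below a mean of 7 and 70.6% from 9 to 11. The lymphocyte markers had means between 4.95 and 7.68, the endothelial markers between 9.15 and 11.19 and the fibroblast markers between 8.68 and 13.53. In bulk tissue, fewer cells of a type and less RNA per cell cannot be told apart. The 3′ minus 5′ signal of the Gapdh control, a sign of RNA quality, was 0.62, 0.61 and 0.54 on the other arrays and 0.76 on knock-in replicate 2.

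Genes around the pathway were described by 11 neighbouring lists, with 56 of 85 genes within 0.15 of 0 (65.9%, against 57.2% of all genes). Of the 85 genes, 0 passed the test, with 9 higher and 2 lower at an unadjusted limma p under 0.05 (10.6% and 2.35%, against 5.45% and 4.76% of all genes). Their median difference was 0.06, against −0.01 over all genes, and 59 were higher (69.4%, against 46.9%). The share of higher genes changed with the signal. It was 25.5% of all genes with a mean below 7, 60.1% from 7 to 9, 70.6% from 9 to 11 and 67.4% from 11 upward. At an unadjusted limma p under 0.05, 3.27% of all genes below 7 were higher and 7.79% lower, against 8.12% and 2.85% from 7 to 9. Counts of higher genes in the lists below stand beside these shares.

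The kinase AMPK, which lowers malonyl-CoA by restraining acetyl-CoA carboxylase, supplied 4 of the 11 genes at an unadjusted limma p under 0.05. Prkag2, a regulatory subunit gene, lay at 7.78 and 7.79 against 8.10 and 8.21, a difference of 0.37, with 0.54, 0.43 and −0.07 by its other probe sets. Prkaa2, the catalytic subunit gene of heart muscle, lay at 11.43 and 11.44 against 11.15 and 11.09, a difference of −0.32, with −0.01 and 0.02 by the others. The 9 genes of malonyl-CoA synthesis and its control split into 4 higher and 5 lower. The limma adjusted p was 0.458 for both named genes.

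Peroxisomes shorten very long chains by a parallel cycle, and 11 of its 14 measured genes were higher, with a median of 0.10. Acaa1b, a thiolase gene abundant in liver, was near background in wild-type (4.42 and 4.25) and at 5.96 and 5.32 in knock-in hearts. The part of the liver transcripts in this difference was not tested. Crot, which moves shortened chains onto carnitine, lay at 8.29 and 8.73 against 9.02 and 8.95, a difference of 0.48, against −0.27 by its other probe set. Among 7 further carnitine genes 6 were higher, with the carnitine synthesis gene Tmlhe at 0.27, and at 0.69, 0.49 and −0.22 by dimmer probe sets.

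The thioesterase genes, whose products release fatty acids from coenzyme A, included differences in both directions. Acot2 lay at 12.28 and 12.20 against 11.93 and 11.78, a difference of −0.38, and Acot11 at 9.13 and 8.75 against 9.32 and 9.27, a difference of 0.36. The other Acot2 probe set differed by −0.03 and the other Acot11 probe set by 0.06. Of 15 genes of receptors and coactivators that control the pathway, 8 were higher and 7 lower. Esrrb, an oestrogen-related receptor gene, differed by 0.37 and the corepressor gene Nrip1 by 0.29 by their brightest probe sets, with others of either sign. Ppara lay at 9.75 and 9.88 against 9.85 and 9.90, a difference of 0.06, and its other probe sets were at −0.06 and −0.12.

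Of the mitochondrial sirtuin genes, whose products remove acyl groups from enzymes of this pathway, 3 of 3 were higher. Sirt5 lay at 9.47 and 9.35 against 9.72 and 9.80, a difference of 0.35 (limma adjusted p = 0.458), and its other probe sets were at 0.20 and 0.14. Sirt4 differed by 0.18. Flavin supply, on which the dehydrogenases depend, had 3 of 4 genes higher, with Flad1 at 0.26 and Slc25a32 at 0.27, and at 0.72 and 0.30 by dimmer probe sets of the latter. Of 4 genes of ketone and monocarboxylate transport 3 were higher, with Slc16a1 at 0.26 (11.94 and 12.12 against 12.23 and 12.35) and Slc16a3 at −0.16. In the propionyl-CoA route 4 of 6 were higher, with Mmab at 0.27, against −0.19, −0.12 and 0.05 by its other probe sets, and Mmaa at 0.10. In the tricarboxylic acid cycle, which burns the acetyl-CoA, 14 of 17 stood higher (82.4%), with a median of 0.05. All 17 had a mean of at least 11. Of all genes as bright 67.4% were higher, also with a median of 0.05. Dld differed by 0.31, with overlapping groups, and Sucla2 by 0.15. Other probe sets, all dim, were at −0.12 for Dld and at 0.19 and −0.35 for Sucla2. Among genes of ketone making, only Bdh2 was read by a probe set with 1 symbol, near background and at −0.13.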

How the data were processed

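Per the labels, biotin-labelled cRNA from Trizol-extracted heart RNA was hybridised to Affymetrix arrays. The deposited values are log2 RMA signals, 1 per probe set and array. The submitters' processing notes name Affymetrix Expression Console, and the labels state that the authors normalised these wild-type arrays with the knock-in arrays alone. Versions and filters were not given in the sources used here. Fewer arrays mean lower precision, and arrays have no read depth.

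Of 45101 probe sets 64 controls were left out. A linear model of genotype was fitted to the other 45037 in limma 3.58.1 under R 4.3.3, with lmFit, eBayes and no covariate (2 residual and 4.54 prior degrees of freedom). P-values were adjusted by Benjamini-Hochberg over all of them, at a threshold of 0.05, and the median standard error was 0.12. The procedure was tested on simulated data whose changes were larger than any member difference. Where several probe sets read a gene, the brightest over the 4 arrays stands for it. Python 3.11.15 made the summaries and plots.

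The members, lists and tests were chosen with earlier results of these data known. Members have all arrays given where a probe set had an unadjusted p under 0.05, where a gene had 1 of the 2 largest differences of its role, where probe sets differed in sign with 1 beyond 0.3, or for Cpt1a, Cpt2, Acadm, Hadha, Oxct1 and Bdh1. Of other lists the 2 genes of smallest p are named. Alternatives changed the variance prior, the filter on dim or cross-hybridising probe sets, the scaling, the array weights, the threshold and the probe set that stands for a gene, added the replicate number as a block, or left out 1 array.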

Additional observations from a re-analysis of the deposited data

How the results depend on the processing

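With 2 arrays a group, a lone array left after leaving out its partner was assumed to vary like the other genotype. No member probe set passed at a threshold of 0.05 or 0.1 in any alternative run, where the lowest adjusted p of a member was 0.149. Of 58 member probe sets, 34 kept their sign in each alternative run and 24 turned in at least 1. The 8 named for an unadjusted p under 0.05 kept theirs. The count of 8 was 4 without s_at and x_at probe sets, 12 with an intensity trend in the variance prior and 11 with the arrays shifted to 1 median. The shares over all probe sets are given above. With 1 array left out the count also changed, as did that over all probe sets. The count of 22 higher members was 11 after quantile normalisation (35.5%, against 44.8% of all genes) and 10 after cyclic loess (32.3%, against 48.0%). With the arrays shifted to 1 median it was 27 (87.1%, against 59.9%). Over all genes the medians after these scalings were −0.020, −0.007 and 0.046. The median of 0.016 became 0.031 without s_at and x_at probe sets, 0.077 with the arrays shifted to 1 median, −0.023 after quantile normalisation, −0.033 after cyclic loess and 0.039 when a gene's probe sets were averaged. It ranged from 0.0090 to 0.064 with 1 array left out. Of all probe sets 3 passed, against 1 among those with a mean of at least 7, 11 with the arrays shifted to 1 median, 5 at a threshold of 0.1 and 0 to 2 with 1 array left out. The 0 came without knock-in replicate 1, where 2155 had an unadjusted limma p under 0.05. The cause of these changes was not tested.

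In a fit with the replicate block, 8 member probe sets had an unadjusted p under 0.05, 7 higher and 1 lower, and 0 passed. Ech1 left these 8, at an unadjusted limma p of 0.057, and the s_at probe set of Acad11 joined them. The labels give only a shared number, and the difference between replicates 1 and 2 correlated at 0.08 between genotypes over probe sets, so the samples were not treated as paired.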

Other observations

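The genes beside Ech1 in the mouse gene table differed in both directions. Lgals4, the next protein-coding gene, which encodes a galectin, lay at 9.73 and 9.22 in wild-type and at 8.28 and 8.14 in knock-in hearts, a difference of −1.26 (limma adjusted p = 0.261). Lgals7 and Capn12, the genes after it, differed by −0.38 and −0.21, also with both knock-in arrays below both wild-type arrays. On the other side, Hnrnpl, a gene of RNA processing, lay at 7.72 and 7.25 against 8.31 and 8.67, a difference of 1.01 (limma adjusted p = 0.416). Ech1 overlaps neither Hnrnpl nor Lgals4 in the gene table. The 80 measured genes between Gsk3a and Ech1 were 33 higher and 47 lower, with a median difference of −0.04. Further out, Rinl and Eif3k differed by 0.19 and 0.13 with both knock-in arrays the higher, and Sirt2, Nfkbib and Actn4 by −0.06, −0.03 and −0.08 with overlapping groups. The cause of these differences was not tested.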
